A study of Mus musculus with 4 samples.

Results

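The antiviral interferon-stimulated genes described here are 35 genes named in a fixed list of antiviral effectors, RNA sensors, interferon transcription factors and regulators of the response. They were found by exact match of the symbol in the deposited count table, and where a symbol had several gene IDs the ID with most counts was to be taken. Each of the 35 symbols matched a single ID, so the members are 35 of the 53801 genes in the table. All 35 passed the filter on low counts that left 17462 genes to test. By role they are 20 effectors, 3 cytoplasmic RNA sensors (Ddx58, Ifih1 and Dhx58), 3 transcription factors (Irf7, Irf9 and Stat2), 6 regulators (Usp18, Rtp4, Ifi35, Trim30a, Parp14 and Parp9) and 3 other interferon-stimulated genes (Ifi44, Tor3a and Sp100).

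Type I interferons are secreted proteins that bind the receptor formed by Ifnar1 and Ifnar2 and activate the kinases Jak1 and Tyk2. The kinases phosphorylate Stat2, which acts with Irf9 in a complex that binds interferon-stimulated response elements in promoters and raises transcription of the genes described here. Many of these genes also respond directly to interferon regulatory factors, and in osteoclast precursors interferon beta made by the cells themselves is known to restrain osteoclast formation.

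The study treated osteoclast precursor cells, the myeloid cells that fuse into bone-resorbing osteoclasts, with DKK1, a secreted antagonist of Wnt signalling that binds the Wnt co-receptors. The cells came from 2 wild-type C57BL/6 mice, and all groups share that genotype and strain. The labels name the preparations precursor cells 1 and precursor cells 2, and each gave 1 library after 3 h with DKK1 at 200 ng/ml and 1 library after 3 h with PBS as the control. The isolation of the cells and the age of the mice remain not given in the sources used here. Each preparation was taken as 1 mouse, so mouse, isolation and culture cannot be told apart.

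Libraries held between 41163663 and 53537927 counts. Deviations of same-numbered libraries from their treatment means correlated at 0.726 across the 17462 tested genes. As a check of the labelled cell type, Csf1r, the receptor for the growth factor M-CSF, was at 2033 and 1969 CPM (counts scaled to library size) in the PBS and DKK1 libraries of precursor cells 1 and at 2575 and 2593 CPM in those of precursor cells 2. Lyz2, a myeloid lysozyme gene, was at 24909 and 24782 CPM in precursor cells 1 and at 14288 and 14685 CPM in precursor cells 2. Tnfrsf11a, which encodes the osteoclast receptor RANK, was at 200 and 198 CPM in precursor cells 1 and at 197 and 204 CPM in precursor cells 2. The 2 preparations stand apart: 33.8% of all tested genes differed between them (edgeR adjusted p under 0.05), so each result below is given by preparation. In total RNA of mixed cells, fewer cells of a type and less RNA per cell cannot be told apart.

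All 35 antiviral genes were expressed in all 4 libraries. In the authors' deposited tables, whose FPKM values scale counts to gene length and library size, the members had a median of 20 FPKM in the PBS library of precursor cells 1, where the median of all listed genes was 5.51 FPKM. In the PBS library of precursor cells 2 the members' median was 97.1 FPKM in the authors' deposited table, against 5.18 FPKM for all listed genes. Per length, Bst2 (tetherin, which holds budding virus particles on the cell surface) was the most abundant member, at 375 and 429 FPKM in precursor cells 1 and 876 and 936 FPKM in precursor cells 2 with PBS and DKK1, in the authors' deposited tables. Isg15, a ubiquitin-like protein that is joined to other proteins, was at 118 and 139 FPKM in precursor cells 1 and at 668 and 676 FPKM in precursor cells 2 in the authors' deposited tables. Irf7, the factor that amplifies interferon production, was at 99.5 and 111 FPKM in precursor cells 1 and at 318 and 306 FPKM in precursor cells 2 in those deposited tables of the authors. Ifit3, of the family that binds viral RNA, was at 43 and 57.7 FPKM in precursor cells 1 and at 678 and 696 FPKM in precursor cells 2 in the authors' deposited tables. The order of levels therefore differed between the preparations: Irf7 was above Ifit3 in precursor cells 1 and below it in precursor cells 2, with both treatments. The lowest member in PBS was Ifi44 (3.17 FPKM) in precursor cells 1 and Herc6 (20.8 FPKM) in precursor cells 2, per the authors' deposited tables.

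Together the 35 genes took 0.418% of all counts in the PBS library of precursor cells 1 (95% Wilson interval 0.4167 to 0.4202) and 0.469% in its DKK1 library (0.4674 to 0.471). In precursor cells 2 they took 1.95% with PBS (1.946 to 1.954) and 1.95% with DKK1 (1.942 to 1.95). These intervals cover counting error only. The plot of member levels shows the same for single genes: for every member, both libraries of precursor cells 2 lay above both libraries of precursor cells 1.

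**Figure D1:**
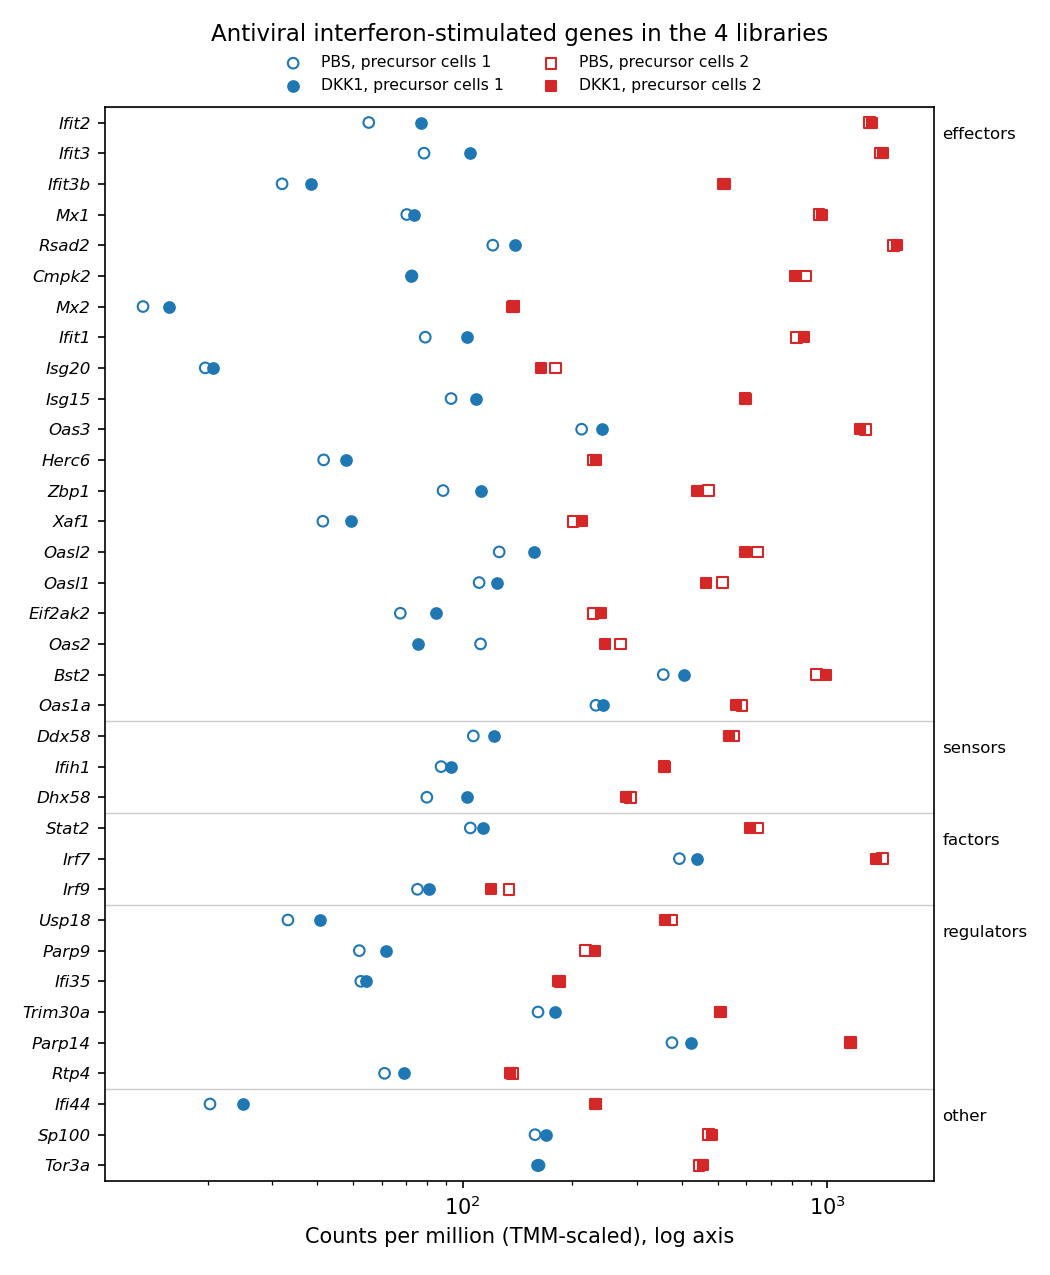
Levels in CPM (TMM-scaled, log axis) of the 35 antiviral genes in the 4 libraries, grouped by role. Open symbols are PBS and filled symbols DKK1, circles are precursor cells 1 and squares precursor cells 2. For every gene the 2 squares lie to the right of the 2 circles, while open and filled symbols of one preparation lie close together; Ifit2, for example, is at 55.3 and 77.1 CPM in precursor cells 1 and at 1306 and 1325 CPM in precursor cells 2.

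The first comparison asks whether DKK1 changed these genes within 3 h. None of them passed the test: 0 of 35 had an adjusted p under 0.05 (edgeR quasi-likelihood, Benjamini-Hochberg over all genes tested), where the background was 0.0515% of all genes (9 of 17462). The members' adjusted p-values in edgeR ran from 0.959 to 0.999. At an unadjusted p under 0.05 there were 3 members, Oas2, Bst2 and Ifit1, and 4.47% of all genes. DESeq2 and limma-voom also called 0 members, with 2 at an unadjusted p under 0.05 in each. Fitted log2 changes with DKK1 ran from -0.35 (Oas2) to 0.23 (Ifit2), with a median of 0.09 against 0.00 over all genes, and 31 of 35 were above 0 (background 49.6%). The 95% intervals of the 35 changes lay between -0.62 (Oas2) and 0.49 (Ifit2) on the log2 scale. A p that misses the threshold does not show that DKK1 left these genes unaltered.

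The 2 pairs of libraries differed in what they showed. In precursor cells 1, 32 of 35 members had a log2 difference above 0 (background 48.4%), with a median of 0.19 and a range from -0.58 to 0.48. In precursor cells 2, 16 of 35 were above 0 (background 50.7%), with a median of 0.00 and a range from -0.16 to 0.09. Members above 0 in both pairs numbered 15 (background 25.6%), 2 (Oas2 and Cmpk2) were below 0 in both, and 18 had opposite signs (background 47.6%). With 1 library per treatment in each preparation, the difference between the pairs could not be tested.

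Among the effectors, Ifit2, Ifit3 and Ifit1 had the largest log2 differences with DKK1 in precursor cells 1, at 0.48, 0.42 and 0.38; the fourth Ifit gene, Ifit3b, was at 0.26, below Zbp1 (0.34). Ifit2 was at 55.3 CPM with PBS and 77.1 CPM with DKK1 in precursor cells 1, and at 1306 and 1325 CPM in precursor cells 2. Its log2 difference was 0.48 in the first pair and 0.02 in the second, and its fitted change of 0.23 did not pass the test. Ifit1 was at 79 and 103 CPM in precursor cells 1 and at 824 and 861 CPM in precursor cells 2. Its fitted log2 change was 0.21 (95% interval 0.01 to 0.41). The DKK1 library was the higher of the pair in both preparations for Ifit1, Ifit2 and Ifit3, but the treatment groups overlapped because the preparations lay far apart.

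Oas2, an oligoadenylate synthetase that makes the messenger activating RNase L, had the largest negative value of the 35. It was at 112 CPM with PBS and 75.3 CPM with DKK1 in precursor cells 1 and at 271 and 245 CPM in precursor cells 2, so the DKK1 library was the lower in both pairs. The fitted log2 change was -0.35 (95% interval -0.62 to -0.09, edgeR adjusted p = 0.959). Its neighbour Oas3, of the same family, was at 212 and 241 CPM in precursor cells 1 and at 1270 and 1228 CPM in precursor cells 2, a fitted change of 0.07. Bst2 was at 355 and 404 CPM in precursor cells 1 and at 933 and 992 CPM in precursor cells 2. Its fitted log2 change was 0.14 (95% interval 0.03 to 0.25, edgeR adjusted p = 0.959), and no effector passed the test.

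Other effectors differed in how far the pair of libraries stood apart. Mx1 was at 70.3 and 73.5 CPM in precursor cells 1 and at 948 and 967 CPM in precursor cells 2, log2 differences of 0.06 and 0.03. Eif2ak2 was at 67.5 and 84.5 CPM in precursor cells 1 and at 228 and 239 CPM in precursor cells 2, the DKK1 library being the higher in both pairs. Zbp1 was at 88.4 and 112 CPM in precursor cells 1 and at 472 and 439 CPM in precursor cells 2. Oasl2 was likewise higher with DKK1 in the first pair (126 and 157 CPM) and lower with it in the second (644 and 595 CPM). The remaining effectors had fitted log2 changes between -0.05 (Isg20 and Cmpk2) and 0.22 (Ifit3).

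The sensors, which recognise viral RNA in the cytoplasm, had a median log2 change of 0.07 with DKK1. Dhx58 (LGP2), a sensor that modulates the other sensors, was at 79.8 and 103 CPM in precursor cells 1 and at 289 and 280 CPM in precursor cells 2. Its fitted log2 change was 0.16 with an interval from -0.10 to 0.42. Ddx58 (RIG-I) was at 107 and 122 CPM in precursor cells 1 and at 555 and 539 CPM in precursor cells 2, a fitted change of 0.07 with an interval from -0.10 to 0.24. Both were higher with DKK1 in precursor cells 1 and lower with it in precursor cells 2. Ifih1 (MDA5), the other sensor, was at 87.3 and 92.9 CPM in precursor cells 1 and at 357 and 359 CPM in precursor cells 2, above 0 in both pairs (log2 differences of 0.09 and 0.01).

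The transcription factors differed in sign between the pairs, with all 3 above 0 in precursor cells 1 (log2 differences of 0.11 to 0.16) and all 3 below 0 in precursor cells 2 (-0.16 to -0.06). Irf7 was at 393 and 438 CPM in precursor cells 1 and at 1416 and 1356 CPM in precursor cells 2, with a fitted change of 0.05 (interval -0.10 to 0.19). The 6 regulators had a median log2 change of 0.08. Usp18, which removes Isg15 from proteins and dampens the interferon receptor, was at 33.2 and 40.7 CPM in precursor cells 1 and at 374 and 359 CPM in precursor cells 2. Its fitted change was 0.10 (interval -0.13 to 0.32). The other 3 genes had fitted changes of 0.01 (Tor3a, of the torsin family of ATPases), 0.06 (Sp100, a nuclear body protein) and 0.13 (Ifi44).

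The authors' deposited tables compare 1 library with 1 library in each preparation and call a gene at an FDR under 0.05 with a log2 ratio of at least 1 in size. They call 0 of 35 members in precursor cells 1 (background 0.921% of 13253 genes) and 0 of 35 in precursor cells 2 (background 0.987% of 13175 genes). On FDR alone the authors' deposited table for precursor cells 1 holds 19 members as higher with DKK1 (background 9.11%) and 1, Oas2, as lower (background 9.92%), at a log2 ratio of -0.57 and an FDR of 2.45e-14. The authors' deposited table for precursor cells 2 holds 0 members as higher (background 8.24%) and 0 as lower (background 8.49%), with log2 ratios from -0.15 to 0.10. A test between single libraries carries no replicate error, so those FDR values compare these libraries, not the treatments.

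**Figure D2:**
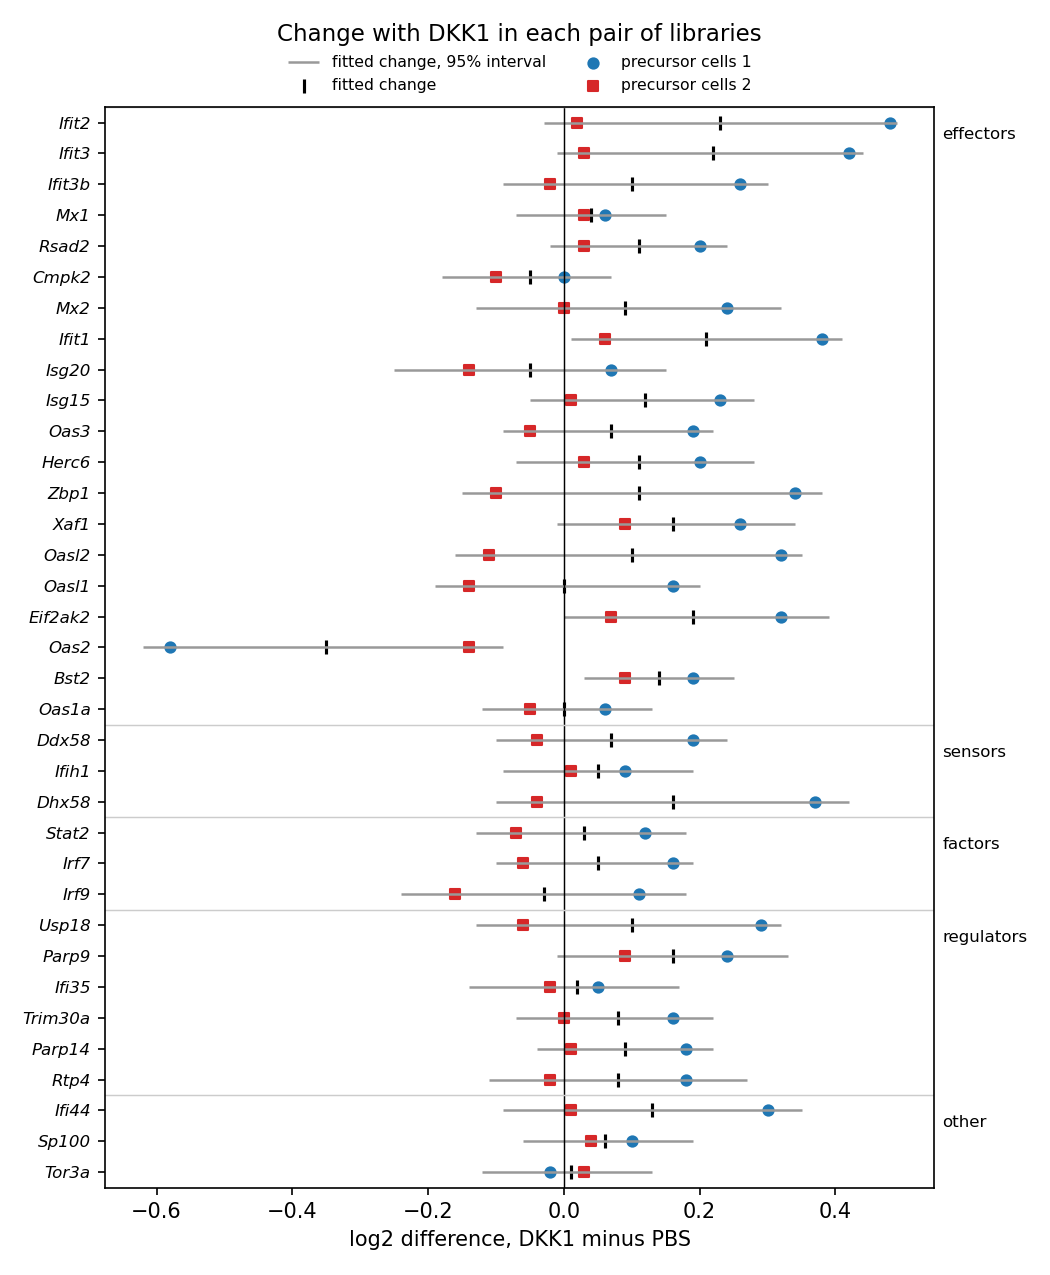
Log2 difference, DKK1 minus PBS, for each of the 35 antiviral genes: circles are the pair from precursor cells 1, squares the pair from precursor cells 2, and the black tick with its grey line the fitted change and its 95% interval. Most circles lie to the right of 0 (32 of 35) and the squares cluster at 0 (median 0.00), with Oas2 the leftmost gene at -0.58 and -0.14.

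The second comparison sets precursor cells 2 against precursor cells 1. It rests on the same 4 libraries as the first and compares these 2 preparations, since neither was replicated. All 35 antiviral genes were higher in precursor cells 2 at an adjusted p under 0.05 (edgeR), where the background was 17.9% of all genes higher and 15.9% lower. The median log2 difference was 2.19, or 4.57-fold, against 0.00 over all genes tested. Values ran from 0.70 (Irf9, 1.62-fold) to 4.33 (Ifit2, 20.1-fold), and adjusted p-values in edgeR from 2.06e-06 to 0.00227. A fitted log2 difference above 1 was found for 34 members (background 11.3%), above 2 for 20 (background 4.77%) and above 3 for 11 (background 2.75%). The difference was present with either treatment: the members' median was 2.36 between the PBS libraries and 1.97 between the DKK1 libraries.

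Effectors had the largest differences, with a median log2 difference of 2.51. Ifit2 was at 55.3 and 77.1 CPM in precursor cells 1 and at 1306 and 1325 CPM in precursor cells 2 (log2 4.33, SE 0.12, edgeR adjusted p = 9.05e-06). Ifit3 was at 78.4 and 105 CPM in precursor cells 1 and at 1394 and 1425 CPM in precursor cells 2, a 15.5-fold difference. Ifit3b differed 14.8-fold and Ifit1 9.34-fold, so all 4 Ifit genes in the list stood at 9-fold or more.

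The Mx genes belong to a family of dynamin-like GTPases that block viral nucleocapsids. Whether these cells make working Mx protein was not measured, and Mx2 is annotated as a polymorphic pseudogene. Mx1, with the CPM given above, had a log2 difference of 3.74 (95% interval 3.61 to 3.86) that had the smallest adjusted p of the members, 2.06e-06 in edgeR. Rsad2 (viperin, which makes a chain-terminating nucleotide) and its neighbour Cmpk2 (a mitochondrial nucleotide kinase) lie side by side in the genome. Rsad2 was at 121 and 139 CPM in precursor cells 1 and at 1516 and 1548 CPM in precursor cells 2, 11.8-fold. Cmpk2 was at 72.6 and 72.4 CPM in precursor cells 1 and at 873 and 817 CPM in precursor cells 2, 11.6-fold.

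The oligoadenylate synthetase family spanned a smaller range. Oas3 differed 5.51-fold, Oasl2 4.4-fold, Oasl1 4.17-fold, Oas2 2.8-fold and Oas1a 2.42-fold. The abundant Bst2 differed 2.54-fold, and Eif2ak2 (PKR, the kinase that halts translation on sensing double-stranded RNA) 3.08-fold. Isg15 was at 93 and 109 CPM in precursor cells 1 and at 595 and 600 CPM in precursor cells 2, 5.92-fold. The nuclease Isg20 differed 8.5-fold, Herc6, an Isg15 ligase, 5.15-fold, the nucleic acid sensor Zbp1 4.57-fold and Xaf1, a proapoptotic protein, 4.57-fold. Thus the effectors with the highest levels per length in precursor cells 1, Bst2 and Isg15, were not those with the largest difference.

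Among the sensors, Ddx58 differed 4.77-fold, Ifih1 (MDA5) 3.97-fold and Dhx58 3.12-fold. The 3 transcription factors differed unequally. Stat2 was at 105 and 114 CPM in precursor cells 1 and at 644 and 615 CPM in precursor cells 2, a log2 difference of 2.52 (95% interval 2.36 to 2.68, edgeR adjusted p = 8.62e-06). Irf9, its partner in the complex, was at 75.2 and 81 CPM in precursor cells 1 and at 134 and 120 CPM in precursor cells 2, a log2 difference of 0.70 (95% interval 0.49 to 0.91, edgeR adjusted p = 0.00227), the smallest of the 35. Irf7 differed by 1.74 on the log2 scale (edgeR adjusted p = 2.02e-05). The intervals of Stat2 and Irf9 do not overlap; no test of the difference between genes was run.

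Of the regulators, Usp18 stood apart at 9.95-fold (log2 3.32, 95% interval 3.07 to 3.56, edgeR adjusted p = 1.1e-05), and the other 5 differed between 2.09-fold (Rtp4) and 3.94-fold (Parp9). Trim30a, a ubiquitin ligase that restrains Toll-like receptor signalling, was at 161 and 179 CPM in precursor cells 1 and at 510 and 509 CPM in precursor cells 2. Parp14 and Parp9, ADP-ribosyltransferase family members that pair in antiviral signalling, were at 375 and 424 CPM and at 52.1 and 61.6 CPM in precursor cells 1. In precursor cells 2 they were at 1156 and 1162 CPM and at 217 and 230 CPM. Ifi44 differed 10.3-fold, from 20.3 and 25 CPM to 231 and 232 CPM, while Sp100 and Tor3a differed 2.93-fold and 2.8-fold.

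**Figure D3:**
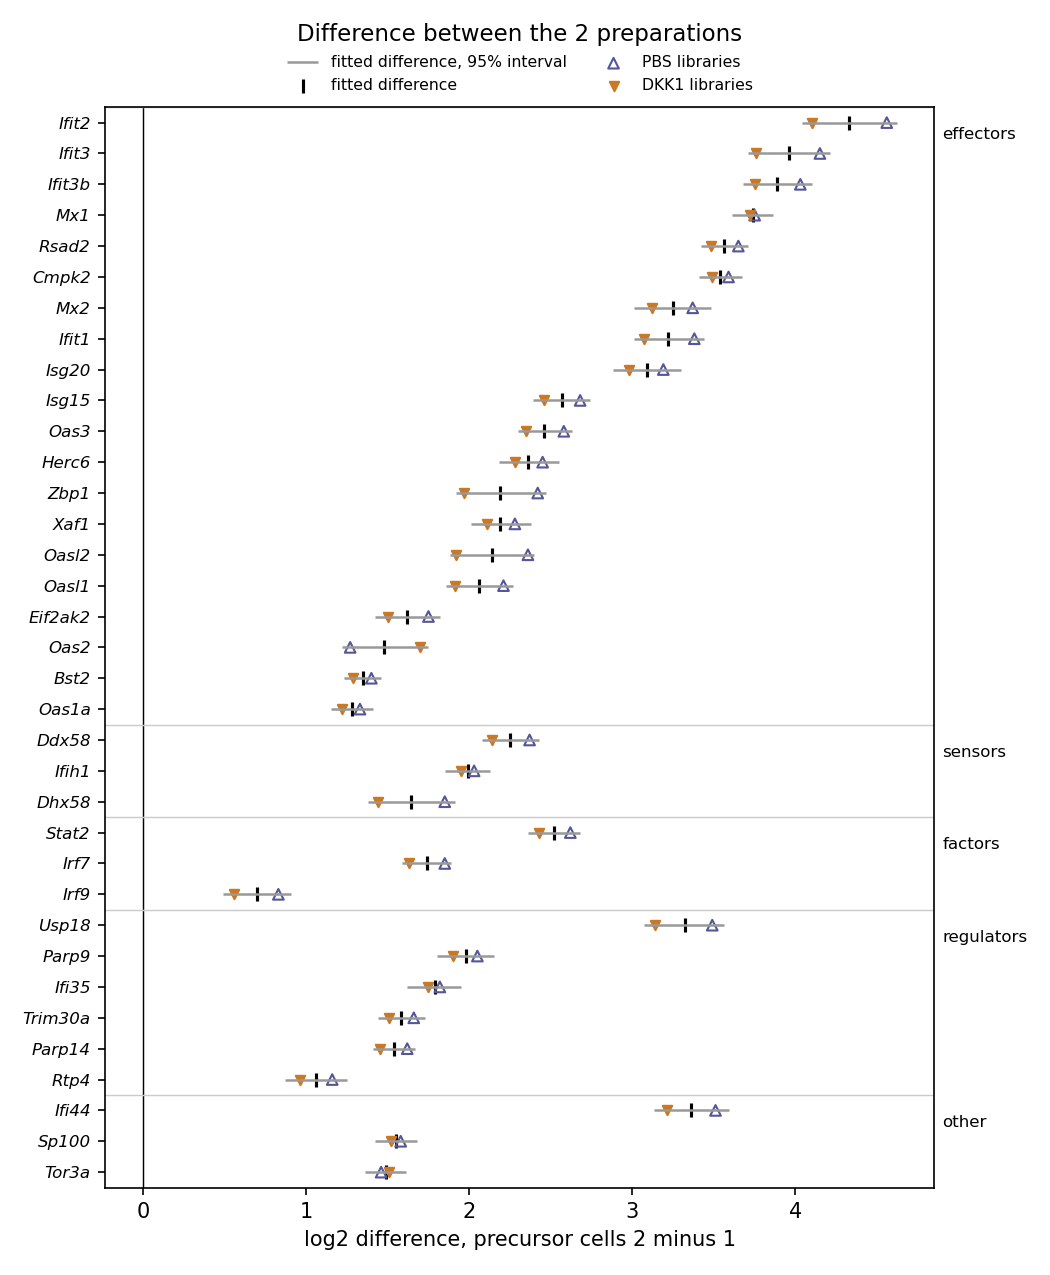
Log2 difference, precursor cells 2 minus precursor cells 1, for the 35 antiviral genes by role: triangles pointing up compare the PBS libraries, those pointing down the DKK1 libraries, and the black tick with its grey line is the fitted difference with its 95% interval. All symbols lie to the right of 0, from 0.56 (Irf9, DKK1 libraries) to 4.56 (Ifit2, PBS libraries).

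Some members share gene models with other genes, and the authors' counting rule is not known, so their single values are less certain. By GENCODE M21 annotation (GRCm38), 15 members overlap no exon of, and are not near-identical to, another gene, and 27 held at least 90% of the counts of themselves and their partners together. Ifit3 and Ifit3b are near-identical and held 73% and 27% of their common counts; summed, their log2 difference between preparations was 3.94. Mx1 and Mx2 held 87% and 13% (summed 3.66), and Mx2 is annotated as a polymorphic pseudogene. Irf9 shares exons with Rnf31 and held 52.4% of their counts; the sum differed by 1.00. Oas1a shares sequence with Oas1g (64%; summed 1.42), Trim30a with Trim30d (74.5%; summed 1.67) and Parp9 shares exons with Dtx3l (38.4%; summed 2.05). All 35 remained called between preparations and 0 with DKK1 when counts were summed in this way.

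In the genome, 14 members have another member within 100 kb and 21 do not. The 4 Ifit genes lie in one cluster on chromosome 19, with Ifit2 from 34550694 to 34576419 and Ifit1 from 34640871 to 34650009. The other pairs of neighbours are Oas2 with Oas3 and Oasl1 with Oasl2 on chromosome 5, Mx1 with Mx2 and Parp9 with Parp14 on chromosome 16, and Rsad2 with Cmpk2 on chromosome 12. Isg15 stands alone on chromosome 4, from 156199424 to 156200818.

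Because all members moved together between the preparations, promoters are shown for the members in the promoter table with the 7 largest differences (Ifit2, Ifit3, Ifit3b, Rsad2, Cmpk2, Ifi44 and Ifit1) and for Bst2 and Isg15, the most abundant effectors per length. Promoter windows from the RefSeq table for GRCm38.p6, 250 bases before to 50 bases after the gene start, matched 25 of the 35 members; the others are Usp18, Oas2, Mx2, Dhx58, Tor3a, Rtp4, Parp14, Parp9, Zbp1 and Mx1. The windows were searched on both strands for the core of the interferon-stimulated response element, which reads GAAA, then NN (any 2 bases), then GAAA, or on the other strand TTTC, NN, TTTC. The core was found in 13 of 25 members (52%) and in 3.99% of all 27025 genes with a window. Counted by window, it was in 14 of 31 windows of members and in 3.44% of all 32851 windows. Of these 13, 10 had a match wholly before the gene start and 3 only after or across it. The sequences below are from RefSeq promoter windows, 5' to 3' on the gene's strand, with matches of the core in capitals. Ifit1 is at chr19:34640689-34640870 (plus strand), Ifit3 at chr19:34583329-34583528 (plus), Ifit3b at chr19:34607757-34607956 (plus), Ifit2 at chr19:34550494-34550693 (plus), Cmpk2 at chr12:26469015-26469203 (plus), Ifi44 at chr3:151749961-151750110 (minus), Bst2 at chr8:71537473-71537672 (minus), Isg15 at chr4:156200819-156201018 (minus) and Rsad2 at chr12:26456453-26456652 (minus).
Ifit1: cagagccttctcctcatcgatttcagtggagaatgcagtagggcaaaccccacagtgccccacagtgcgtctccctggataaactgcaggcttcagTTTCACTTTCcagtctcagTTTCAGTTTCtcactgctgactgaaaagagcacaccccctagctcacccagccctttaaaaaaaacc
Ifit3: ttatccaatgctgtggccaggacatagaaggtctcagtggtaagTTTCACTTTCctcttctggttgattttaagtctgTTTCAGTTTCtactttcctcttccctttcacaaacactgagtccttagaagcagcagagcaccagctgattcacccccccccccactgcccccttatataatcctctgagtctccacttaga
Ifit3b: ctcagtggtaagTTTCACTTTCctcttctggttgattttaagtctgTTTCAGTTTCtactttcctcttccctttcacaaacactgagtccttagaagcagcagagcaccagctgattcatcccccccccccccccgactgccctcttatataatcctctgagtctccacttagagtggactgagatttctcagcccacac
Ifit2: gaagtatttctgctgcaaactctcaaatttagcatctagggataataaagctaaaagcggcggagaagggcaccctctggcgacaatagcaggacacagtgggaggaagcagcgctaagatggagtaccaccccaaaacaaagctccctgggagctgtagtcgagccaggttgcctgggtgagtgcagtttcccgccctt
Isg15: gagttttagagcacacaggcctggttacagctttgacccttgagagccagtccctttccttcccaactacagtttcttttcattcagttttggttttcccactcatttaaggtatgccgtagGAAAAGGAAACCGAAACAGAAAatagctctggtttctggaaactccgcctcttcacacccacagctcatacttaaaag
Rsad2: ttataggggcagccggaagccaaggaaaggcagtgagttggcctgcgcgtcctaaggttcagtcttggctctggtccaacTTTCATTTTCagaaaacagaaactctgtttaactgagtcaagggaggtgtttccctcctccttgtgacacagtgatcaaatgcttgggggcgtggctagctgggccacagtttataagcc
Cmpk2: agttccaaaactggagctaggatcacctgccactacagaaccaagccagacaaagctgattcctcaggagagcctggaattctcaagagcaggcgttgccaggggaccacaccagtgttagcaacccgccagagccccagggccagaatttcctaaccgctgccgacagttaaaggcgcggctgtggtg
Ifi44: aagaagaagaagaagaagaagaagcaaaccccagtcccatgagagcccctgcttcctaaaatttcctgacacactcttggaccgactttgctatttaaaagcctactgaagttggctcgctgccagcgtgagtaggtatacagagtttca
Bst2: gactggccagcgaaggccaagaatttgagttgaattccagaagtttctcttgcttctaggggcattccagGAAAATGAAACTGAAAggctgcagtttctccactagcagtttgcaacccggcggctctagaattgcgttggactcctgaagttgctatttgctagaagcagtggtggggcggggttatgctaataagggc

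Positions are counted from the RefSeq gene start, which can differ from the GENCODE start given above. Ifit1 has matches starting 104 and 85 bases before its RefSeq start at 34640889, 19 bases apart. Ifit3 and Ifit3b each have 2 matches, 34 bases apart in both. In Isg15, 3 matches start 78, 72 and 66 bases before the start and overlap into one block of capitals, and in Bst2 matches start 130 and 124 bases before it. Rsad2 has a match 120 bases before its start. The sequences printed for Ifit2, with the largest difference between the preparations, for Cmpk2 and for Ifi44 hold none, which says only that these letters are absent there. A match is a description of letters, not a shown binding site. Members with the core had a median log2 difference between preparations of 2.46 and those without it 2.17, so members of both kinds lay far above 0. Among all tested genes with a promoter window, 37.3% of the 448 with the core and 18.7% of the 10582 without it were higher in precursor cells 2. The element bound by Stat dimers, TTCNNNGAA, was found in 6 of 25 members (24%) and in 9.55% of all genes with a window.

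The surrounding interferon pathway was counted from lists of ligands, receptors, inducers, negative regulators and further interferon-stimulated genes. With DKK1, 0.0515% of all genes tested passed the edgeR test (adjusted p under 0.05). It was passed by 0 of 66 further interferon-stimulated genes, 0 of 16 receptor and JAK-STAT genes and 0 of 19 inducers. At an unadjusted p under 0.05 in edgeR there were 8 (12.1%), 1 (6.25%) and 3 (15.8%) of them, against 4.47% of all genes tested. Tlr3 is in both the list of further interferon-stimulated genes and that of inducers, so it is counted in both, here and between preparations. Of 18 negative regulators, 1 passed the adjusted test: Tnfaip3 (A20), an enzyme that edits ubiquitin chains and restrains NF-kB, rose by 0.84 on the log2 scale (edgeR adjusted p = 0.0477). It was at 101 CPM with PBS and 173 CPM with DKK1 in precursor cells 1 and at 93 and 174 CPM in precursor cells 2, so the DKK1 libraries lay above both PBS libraries. This call was lost without the filter on low counts and without the term for preparation, where 0 genes were called. It was also lost with upper-quartile scaling, limma-voom and the legacy quasi-likelihood method, at a like fold. It was kept with DESeq2, with RLE scaling, with a minimum count of 50 and with counts summed over shared gene models. The further interferon-stimulated genes had a median log2 difference of 0.14 within the first pair and 0.02 within the second.

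Between preparations, the pathway differed unevenly. Of all genes tested, 17.9% were higher in precursor cells 2 and 15.9% lower. Of 66 further interferon-stimulated genes, 63 were higher in precursor cells 2, 1 lower and 2 did not pass, with a median log2 difference of 1.88. The chemokine gene Cxcl10 was among them at 120 and 125 CPM in precursor cells 1 and 1280 and 1325 CPM in precursor cells 2. The 3 genes that were not higher, named after their values were seen, were Ifitm1 (log2 -0.59, lower), Ifitm2 (-0.35) and Ifitm6 (0.07), of the transmembrane family that blocks virus entry. Ifitm3, of the same family and list, was higher (log2 0.83, edgeR adjusted p = 5.31e-05). It was at 692 and 687 CPM in precursor cells 1 and at 1212 and 1237 CPM in precursor cells 2. Of 16 receptor and JAK-STAT genes, 11 were higher and 0 lower, with a median of 0.50. The kinase gene Tyk2 was at 101 and 109 CPM in precursor cells 1 and at 219 and 206 CPM in precursor cells 2, 2.02-fold higher. The receptor gene Ifnar1, named after its values were seen, was at 326 and 335 CPM and at 327 and 342 CPM and did not pass the test. Irf5, the gene of this list with the smallest p with DKK1, had a fitted log2 change of -0.36 (edgeR adjusted p = 0.718).

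Of the 21 interferon ligand genes, 16 had 0 counts in all 4 libraries and Ifnb1, interferon beta, was the 1 that passed the filter on low counts. Ifnb1 had 11 counts with PBS and 9 with DKK1 in the first pair, and 282 with PBS and 324 with DKK1 in the second. That is 0.195 and 0.159 CPM against 7.29 and 7.45 CPM, a fitted log2 difference of 5.36 (edgeR adjusted p = 0.000354), and its change with DKK1 was 0.02 (adjusted p = 0.998). The other ligands with any count were Ifng (9 with PBS and 0 with DKK1 in the first pair, 8 with each in the second), and Ifnab, Ifnk and Ifnz with at most 5 counts in 1 library. These ligand values are transcripts in the cells and say nothing of secreted protein.

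Against 17.9% of all genes tested higher in precursor cells 2 and 15.9% lower, the remaining lists were as follows. Of 19 inducers of interferon, 16 (84.2%) were higher and 1 (5.26%) lower, with a median of 0.65. The nucleic acid receptors Tlr9 (log2 3.12) and Tlr3 (2.69) had the largest values, and the adaptor Mavs, named after its values were seen, was the lower one (-0.35, edgeR adjusted p = 0.0495). Of 18 negative regulators 9 (50%) were higher and 2 (11.1%) lower. Socs1, an inhibitor of the Jak kinases, was at 2.88 and the nucleotide-degrading Samhd1 at 1.72. The 14 NF-kB cytokine genes split, with 5 (35.7%) higher and 4 (28.6%) lower and a median of -0.20. Ccl5 (3.96) and Nos2 (4.15) were higher, and Cxcl1 (-2.97) and Il1b (-0.93) lower. The plot of pathway lists shows points of the cytokine list on both sides of 0, where nearly all points of the interferon-stimulated lists are on one side.

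**Figure D4:**
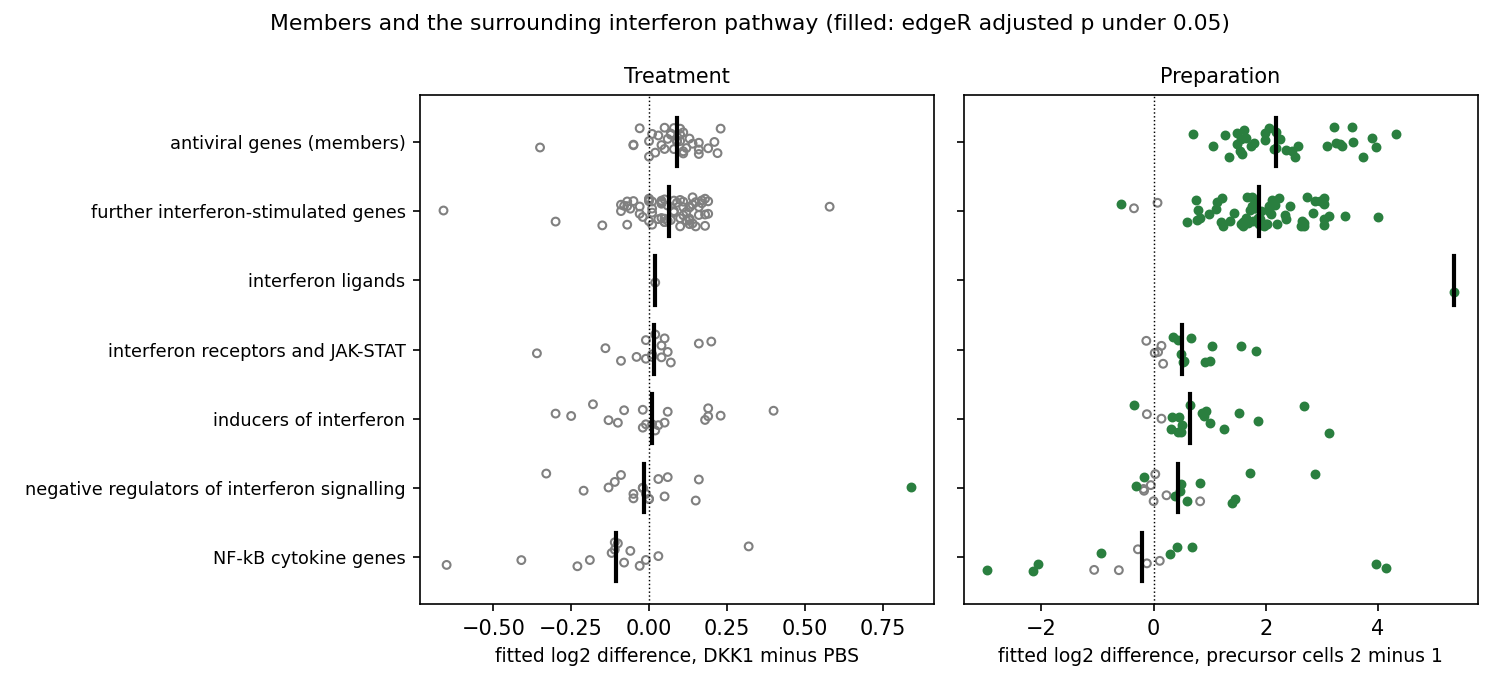
Fitted log2 differences of single genes for the members and 6 pathway lists, with DKK1 minus PBS on the left and precursor cells 2 minus 1 on the right. Filled points have an edgeR adjusted p under 0.05 and black bars are list medians; on the right the member bar is at 2.19 and that of the further interferon-stimulated genes at 1.88, and on the left all points of the members are open.

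Marker lists of the cell types that the preparations could hold also moved between preparations. Of all genes tested, 17.9% were higher in precursor cells 2 and 15.9% lower. The 12 markers of osteoclast precursors, monocytes and macrophages summed to 32503 and 32308 CPM in precursor cells 1 and to 24145 and 24634 CPM in precursor cells 2; 5 were higher and 3 lower. Lyz2 carried the lower sum: without it the other markers summed to 7593 and 7527 CPM in precursor cells 1 and to 9857 and 9948 CPM in precursor cells 2. Within the list, 4 of the 12 markers did not pass the test. The largest rises were those of the monocyte gene Ly6c2 and of Fcgr1. Ly6c2 was at 277 and 266 CPM in precursor cells 1 and at 1985 and 1900 CPM in precursor cells 2, 7.16-fold higher. Fcgr1 was at 212 and 266 CPM in precursor cells 1 and at 944 and 973 CPM in precursor cells 2, 4.03-fold higher. Cd14, a receptor for bacterial lipopolysaccharide, was 2.83-fold lower in precursor cells 2. Neutrophil markers summed to 4980 and 4928 CPM in precursor cells 1 and to 9115 and 9335 CPM in precursor cells 2, with 9 of 11 higher and 1 lower; Ngp was at 1377 and 1310 CPM against 2972 and 2962 CPM. Markers of plasmacytoid dendritic cells, a major source of type I interferon, summed to 123 and 113 CPM and to 74.1 and 77.5 CPM. Of the 10, 1 was higher and 5 lower. The 1 higher was Tcf4, the most abundant of the list, at 30.5 and 36.2 CPM against 45 and 48.4 CPM. Spib was at 42.3 and 31.4 CPM against 5.95 and 5.87 CPM. Without Tcf4 the list summed to 92.6 and 77 CPM in precursor cells 1 and to 29.1 and 29.1 CPM in precursor cells 2. B and plasma cell markers summed to 195 and 127 CPM in precursor cells 1 and to 554 and 564 CPM in precursor cells 2, where Jchain made up 504 and 512 CPM; 2 of 10 were higher and 8 lower. Without Jchain they summed to 192 and 124 CPM and to 49.5 and 52 CPM. Megakaryocyte markers summed to 1652 and 1566 CPM in precursor cells 1 and to 1022 and 1036 CPM in precursor cells 2, with 0 of 6 higher and 3 lower. The lists for conventional dendritic, T and NK, erythroid, mast, stromal and endothelial cells each summed to at most 277 CPM in a library, and the only marker of any list at 0 counts in every library was Car1, an erythroid gene. The part of these shifts in the antiviral difference was not tested. With DKK1, 0 genes of any cell type list passed the edgeR test, where 0.0515% of all genes tested passed. Between 0 and 4 per list had an unadjusted p under 0.05 in edgeR, against 4.47% of all genes tested. The highest shares were 40% of the B and plasma cell list, 40% of the erythroid list, 28.6% of the stromal list and 25% of the osteoclast precursor list. The plasmacytoid dendritic, T and NK, megakaryocyte and endothelial lists held 0.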

How the data were processed

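RNA sequencing was analysed in 4 libraries: PBS and DKK1, each from precursor cells 1 and 2. Per the submitters' processing notes, reads were handled with fastp and HISAT2 on mm10; the counter, its annotation and its strand setting remain not given in the sources used here. The deposited table holds whole-number counts per gene, not normalized. The FPKM, log2 ratio, p-value and FDR columns in the authors' deposited tables (1 per pair) come from the authors and were copied, not tested.

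Counts were tested with edgeR 4.0.16 in R 4.3.3 (quasi-likelihood, TMM scaling, filterByExpr with a minimum count of 10, terms for preparation and treatment), with 1 residual degree of freedom left. P-values are two-sided and were adjusted over 17462 genes by Benjamini-Hochberg, threshold 0.05. The pairing follows the labels, which describe 2 mice and number the preparations; same-numbered libraries deviated together (0.726). P-values measure only the spread between these libraries. Differences within a pair are log2 CPM with a prior count of 2. Near-identical models were found with BLAST 2.17.0 (95% identity over at least 100 bases and 50% of the shorter transcript). The test was also run on simulated data, and the outcome is not given here. Alternatives used DESeq2 1.42.0, limma 3.58.1, other scalings and filters, and left-out libraries.

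Members and lists were chosen with earlier results of these data known. The naming rule gives, per role, the members with the smallest p in either comparison and the most abundant per length; for pathway lists, the genes with the smallest p; and for ligands, all with a count. Tnfrsf11a, Ifnar1, Mavs, Ly6c2, Fcgr1, Cd14, Dtx3l, the Ifitm genes and the promoters printed were chosen after their values were seen. The values of several genes that the rule names in the pathway and cell type lists are left out here.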

Additional observations from a re-analysis of the deposited data

How the results depend on the processing

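Under every alternative that gave a test, 0 of 35 members were called with DKK1 and 35 of 35 between preparations. The members' median change with DKK1 stayed between 0.05 and 0.10 under other scalings, filters and tools, was 0.03 with no replicate block, and was 0.19 within precursor cells 1 alone and 0.00 within precursor cells 2 alone. The fits that leave out single libraries also drop the term for preparation, since 3 libraries leave no residual degree of freedom with it; they moved it between -1.33 and 1.63 and called 0 genes, as dropping that term alone did. The median between preparations stayed between 2.02 and 2.32. With no replicate block the sign of the DKK1 change reversed for Ifit3b (-0.01), Oasl1 (-0.08), Oasl2 (-0.03), Oas1a (-0.02), Oas3 (-0.01), Zbp1 (-0.02), Ddx58 (-0.003), Irf7 (-0.01), Stat2 (-0.04), Usp18 (-0.03) and Ifi35 (-0.0005). With limma-voom it reversed for Oasl1 (-0.04), Oas1a (-0.005) and Stat2 (-0.01). None of these was called either way, and the cause was not tested. Genes called with DKK1 over the whole table numbered 9, and 0 without the filter on low counts or without the replicate block, 2 with limma-voom, 3 with the legacy quasi-likelihood method, 5 with upper-quartile scaling, 15 with a minimum count of 50 and 46 with DESeq2. Between preparations 5905 genes were called, 3507 without the filter, 3917 without DKK1 replicate 2 and 3926 without PBS replicate 2. With 2 libraries per treatment and 1 residual degree of freedom, small changes cannot be told from no change.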

Other observations

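Trim25, the ubiquitin ligase that activates the sensor Ddx58, had the smallest p with DKK1 among the inducers. It was at 96.2 and 111 CPM in precursor cells 1 and at 304 and 457 CPM in precursor cells 2 with PBS and DKK1. The fitted log2 change was 0.40 and did not pass the test (edgeR adjusted p = 0.885). Here the larger difference was in precursor cells 2 (0.59) and the smaller in precursor cells 1 (0.20), the reverse of most antiviral genes.

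Genes near the members that are not members were also counted. Only the members were set aside, so other interferon-stimulated genes near them were kept. Dtx3l, which shares exons with Parp9 and is in the list of further interferon-stimulated genes, is 1 such gene (log2 difference 2.10 between preparations). How many of the genes counted here are of this kind was not determined. Of 166 tested non-members within 100 kb of a member, 61 (36.7%, against 17.9% of all genes tested) were higher in precursor cells 2, 20 (12%, against 15.9%) were lower and 85 did not pass, with a median log2 difference of 0.24. With DKK1, 0 of the 166 passed in edgeR, and 8 (4.82%, against 4.47% of all genes tested) had an unadjusted p under 0.05.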
